A study of Mus musculus with 3 samples.

Results

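Hox genes and Cdx genes of the mouse, 38 and 3 in number, were described across the 3 germ layers of ICR mouse embryos at embryonic day (E) 7.5. The members were taken by symbol, as Hoxa, Hoxb, Hoxc and Hoxd genes with a number and Cdx1, Cdx2 and Cdx4, in the GENCODE M21 annotation. Of the 41 genes described, 37 were listed with at least 1 read among the 17633 genes of the 3 tables. Hoxa6, Hoxb13, Hoxc12 and Hoxd12 were listed in no table and are counted here as 0 reads. RNA-seq had been carried out on 1 library of endoderm, 1 of mesoderm and 1 of epiblast, with no genetic change or treatment in any of them. The embryonic region was cut from wild-type embryos, the layers were parted with enzyme and needles, and tissue from many embryos was pooled for each library. The epiblast library held the neuroectoderm together with the primitive streak. The tables held 40.8 M to 42.7 M reads per library over 16201 to 16430 genes. With 1 library per layer there was no replicate check, so each interval below is a 95% interval for counting error alone and each comparison is of libraries.

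The layer labels were set against a pair of markers for each layer. Sox17 and Foxa2, transcription factors of the endoderm, were highest in endoderm (Sox17 at 39.5, 1.001 and 0.322 RPKM in endoderm, mesoderm and epiblast). RPKM is the number of reads scaled to the length of the transcript and to the total reads of the library. Kdr, a receptor of early mesoderm, was at 0.272, 40.8 and 0.771 RPKM, and Sox2, a factor of epiblast and neural tissue, at 0.616, 1.33 and 42.7 RPKM. Foxf1 was also highest in mesoderm and Pax6, at a low 0.693 RPKM, in epiblast, so all 6 markers stood highest in the layer of their label. The endoderm library also held visceral endoderm and node transcripts, with Ttr at 1012.5 RPKM and the node gene Noto at 15.9 RPKM.

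Hox genes encode homeodomain transcription factors that give cells their position along the head to tail axis. They lie in 4 clusters, and members of different clusters that share a number, called paralogs, derive from the same ancestral gene. Genes of low number lie at the 3′ end of a cluster, are the earliest to be switched on in the gastrulating embryo and reach furthest towards the head. Genes of high number follow later and stay closer to the tail, an order called collinearity. Cdx genes encode caudal-type homeodomain factors of the posterior embryo and, with Wnt, FGF and retinoic acid signals, act on Hox genes. Hox proteins often bind DNA together with the TALE homeodomain proteins of the Pbx and Meis families.

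The Hoxa cluster lies on the minus strand of chromosome 6 (GRCm38), with Hoxa2 at 52162417 to 52164831 and Hoxa13 at 52257694 to 52260880. The Hoxb cluster lies on the plus strand of chromosome 11, from Hoxb13 at 96194316 to Hoxb1 at 96368256. The Hoxc cluster lies on chromosome 15 from 102921103 (Hoxc13) to 103036852 (Hoxc4), and the Hoxd cluster on chromosome 2 from 74668310 (Hoxd13) to 74765142 (Hoxd1). The Cdx genes are not clustered.

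The 250 bases before the RefSeq start site (GRCm38.p6, plus strand, which is also the strand of these 4 genes) are given for Hoxb1 (chr11:96365508-96365757), the Hox gene with the highest level, for Hoxb4 (chr11:96318017-96318266), the Hox gene with the highest share left in endoderm among those over 1 RPKM, for Hoxb8 (chr11:96281655-96281904), which held the most motif matches, and for Hoxd1 (chr2:74762730-74762979), which held none. Capitals mark matches to a caudal motif (TTTATG or TTTATTG), a Hox and Pbx motif (TGATNNAT) or a retinoic acid receptor half-site (AGGTCA), read on either strand. A match on the opposite strand appears as its reverse complement. No marked match overlapped another.
Hoxb1: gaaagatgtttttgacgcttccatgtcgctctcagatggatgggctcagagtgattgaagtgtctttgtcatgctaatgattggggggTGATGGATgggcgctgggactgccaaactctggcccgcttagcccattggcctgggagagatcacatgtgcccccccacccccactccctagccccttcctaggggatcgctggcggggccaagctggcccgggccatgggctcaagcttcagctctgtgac
Hoxb4: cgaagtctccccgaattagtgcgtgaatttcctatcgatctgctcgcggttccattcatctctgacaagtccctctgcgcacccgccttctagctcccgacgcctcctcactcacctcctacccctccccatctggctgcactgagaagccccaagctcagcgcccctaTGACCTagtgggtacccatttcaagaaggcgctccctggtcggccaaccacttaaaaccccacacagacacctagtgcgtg
Hoxb8: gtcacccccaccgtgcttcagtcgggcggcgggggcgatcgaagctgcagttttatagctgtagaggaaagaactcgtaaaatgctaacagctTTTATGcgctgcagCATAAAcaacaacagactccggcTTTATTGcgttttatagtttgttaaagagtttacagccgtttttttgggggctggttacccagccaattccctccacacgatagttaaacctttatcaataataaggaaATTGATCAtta
Hoxd1: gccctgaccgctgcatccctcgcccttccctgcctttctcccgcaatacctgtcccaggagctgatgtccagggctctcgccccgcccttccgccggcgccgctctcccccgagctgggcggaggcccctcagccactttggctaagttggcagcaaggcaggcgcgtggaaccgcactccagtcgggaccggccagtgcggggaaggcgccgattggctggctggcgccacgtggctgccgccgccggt

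Hoxb1 held 1 match, a TGATNNAT on its own strand 162 bases before the start. Hoxb4 held an AGGTCA on the opposite strand 81 bases before the start. Hoxb8 held TTTATG at 157 bases on its own strand and at 143 bases on the opposite strand, TTTATTG at 120 bases and TGATNNAT at 11 bases. The motifs were searched in the 26 member promoters, of 24 genes, that the sequence table held. TTTATG was found in those of 5 genes (Hoxa7, Hoxb8, Hoxd3, Hoxd4 and Hoxd11), while 10.8% of all 32851 promoters held it. TTTATTG was found for Hoxb8 alone (4.20% of all promoters), TGATNNAT for Hoxa2, Hoxb1, Hoxb8 and Hoxd11 (7.68%), and AGGTCA for Hoxb4, Hoxc4, Hoxd3, Hoxd4, Hoxd8 and Hoxd10 (14.02%). A match says only that these letters are in this window.

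Most members were far more abundant in mesoderm or epiblast than in endoderm, with Cdx2 and Hoxc13 as the plainest exceptions. A gene was taken as on above 1 RPKM and as detected above 3 reads. By this rule 3, 13 and 9 members were on in endoderm, mesoderm and epiblast, and 18, 35 and 25 were detected. The genes on in endoderm were Cdx1, Cdx2 and Hoxb1. The genes on in mesoderm were Cdx1, Cdx2, Cdx4, Hoxa2, Hoxb1 to Hoxb6, Hoxb8, Hoxd1 and Hoxd9. Those on in epiblast were Cdx1, Cdx2, Cdx4, Hoxa2, Hoxa3 and Hoxb1 to Hoxb4. The intervals of Hoxa3, Hoxb8 (0.845 to 1.24 RPKM) and Hoxd13 in mesoderm held 1 RPKM, as did those of Hoxd1 and Hoxd13 in epiblast. Counting error alone could thus move these genes across the limit. Mesoderm was the layer with the highest level for 30 of the 37 listed members, epiblast for 6 and endoderm for 1. In a bulk library fewer cells that express a gene and less of its RNA per cell cannot be told apart.

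**Figure D1:**
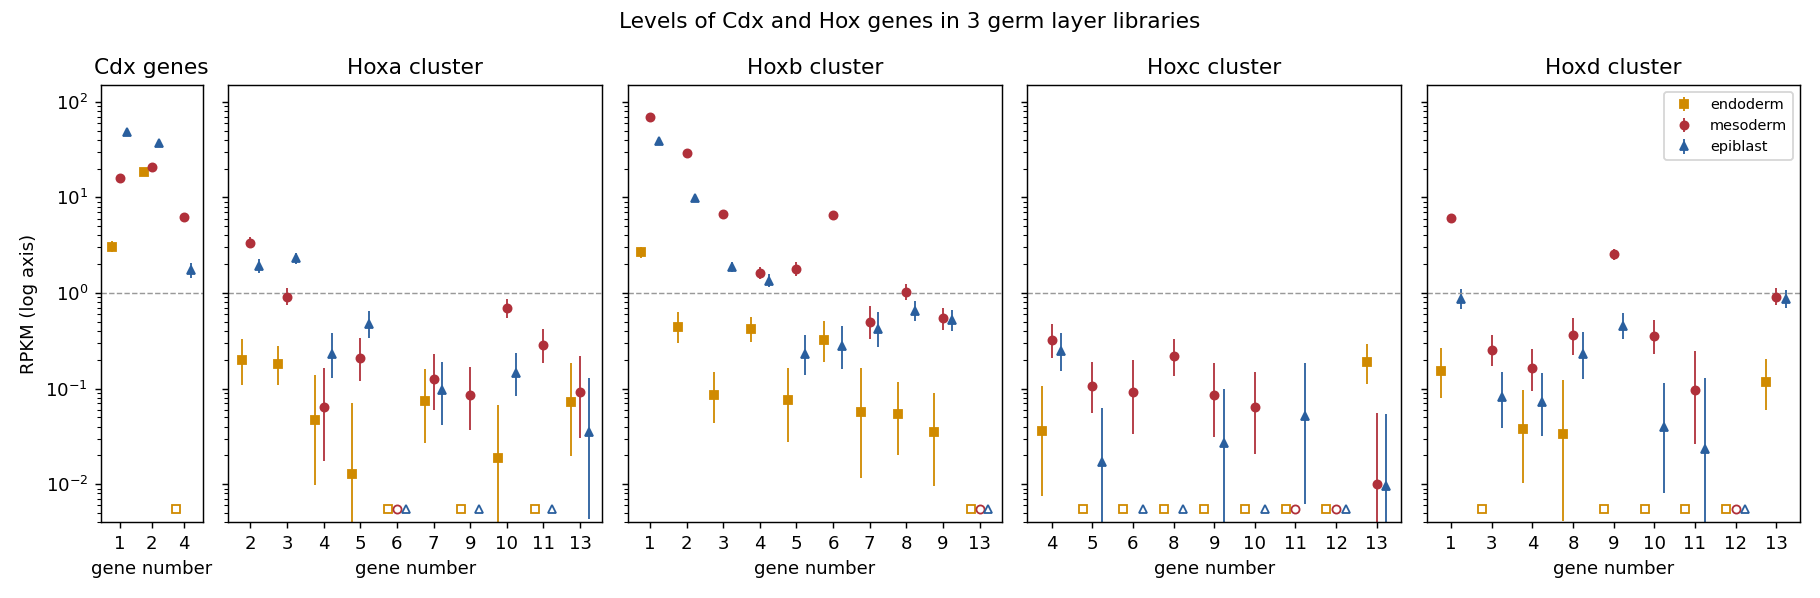
Level of each Cdx and Hox gene in endoderm (squares), mesoderm (circles) and epiblast (triangles) in RPKM on a log axis, by cluster and gene number. Bars are 95% Poisson intervals of the count, open symbols at the bottom are genes with 0 reads, and the dashed line is 1 RPKM. No Hoxc gene reached the line in any layer, while Hoxb genes crossed it up to number 8 in mesoderm and number 4 in epiblast.

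The RPKM of the 10 Hoxb genes summed to 4.16, 116 and 53.7 in endoderm, mesoderm and epiblast. The 9 Hoxd genes summed to 0.341, 10.8 and 2.64 RPKM in the same order and the 9 Hoxc genes to 0.224, 0.897 and 0.353 RPKM. These clusters were thus each highest in mesoderm and lowest in endoderm. The 3 Cdx genes ran in another order, with sums of 21.5, 43.1 and 87.6 RPKM, highest in epiblast.

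**Figure D2:**
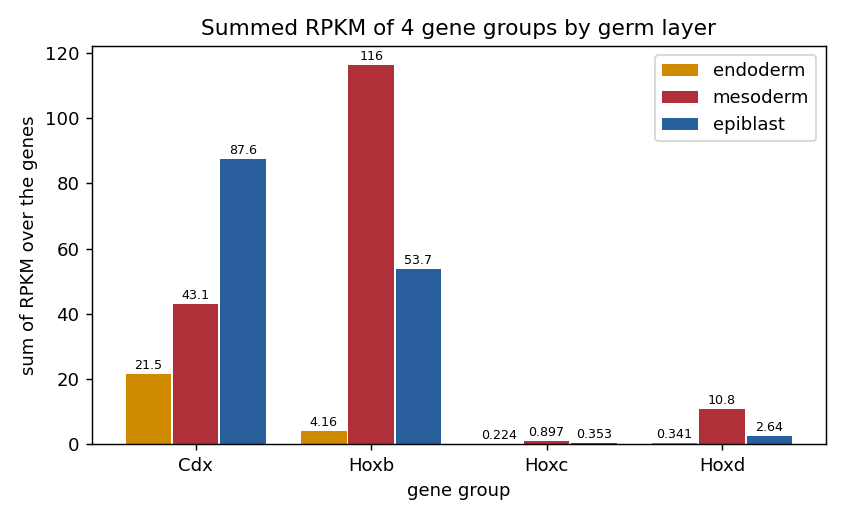
Sum of RPKM over the Cdx genes and over the genes of the Hoxb, Hoxc and Hoxd clusters in endoderm, mesoderm and epiblast, 1 library per bar and no error bar. The Cdx sum was highest in epiblast (87.6), and the Hoxb (116) and Hoxd (10.8) sums were highest in mesoderm.

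Cdx1, a caudal factor driven by Wnt and retinoic acid signals, had 223, 1135 and 3642 reads in endoderm, mesoderm and epiblast, or 3.06, 15.9 and 48.7 RPKM. Cdx2, which acts in the tail bud and also in the trophoblast, had 1644, 1835 and 3398 reads (18.4, 20.9 and 37.1 RPKM). Cdx4, the caudal gene on the X chromosome, had 0, 408 and 118 reads (0, 6.26 and 1.73 RPKM). Cdx1 lies on chromosome 18 (61018862 to 61036199), Cdx2 on chromosome 5 (147300805 to 147307270) and Cdx4 on chromosome X (103321398 to 103330592). The 3 genes did not share a pattern, as Cdx1 and Cdx2 were highest in epiblast and Cdx4 in mesoderm. Cdx2 was also the member with the highest level in endoderm, where it stood at 49.6% (46.7 to 52.6%) of its epiblast level. Cdx1 stood there at 6.28% (5.46 to 7.19%) of epiblast, and Cdx4 had no read, which allows up to 3.

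Since the trophoblast and extra-embryonic ectoderm also express Cdx2, 10 markers of these tissues were read beside it. Their reads summed to 3598, 1913 and 3770 in endoderm, mesoderm and epiblast, and Tpbpa and Prl3d1, markers of the placental trophoblast, were at 0 in all 3. Elf5, a defining factor of the extra-embryonic ectoderm, had 10, 12 and 31 reads (0.108, 0.133 and 0.328 RPKM). Of the list, 2 genes were called higher in endoderm than in epiblast and 1, Tfap2c, higher in epiblast (8.02% and 4.58% of all genes). Tfap2c had 17, 94 and 688 reads (39.5-fold higher in epiblast than in endoderm), Ascl2 had 18, 74 and 112 and Esrrb 30, 51 and 108, each lowest in endoderm and highest in epiblast as Cdx2 was. Esx1 and Plac1 were higher in endoderm than in the other layers (Esx1 at 7.11, 0.0606 and 0.130 RPKM and Plac1 at 19.9, 6.25 and 0.569 RPKM). Gata3 was also highest in endoderm, at 5.02, 2.53 and 3.49 RPKM. Eomes, which the streak and endoderm of the embryo proper also express, was at 9.51, 7.01 and 14.5 RPKM. The part of such cells in the Cdx2 reads was not tested.

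Of the Hoxa genes described, Hoxa2 was on in mesoderm and epiblast and Hoxa3 in epiblast. Hoxa2, a gene of the second branchial arch and hindbrain, had 14, 232 and 140 reads in endoderm, mesoderm and epiblast (0.199, 3.36 and 1.94 RPKM). Hoxa3 had 19, 95 and 250 reads (0.179, 0.914 and 2.30 RPKM), below 1 RPKM in mesoderm. Hoxa2 was thus higher in mesoderm and Hoxa3 in epiblast. Hoxa4 and Hoxa5 stayed under 1 RPKM with 15 and 38 reads in epiblast, 4 and 16 in mesoderm, and 3 and 1 in endoderm. Further along the cluster Hoxa10 stood out with 73 reads in mesoderm (0.692 RPKM) against 16 in epiblast and 2 in endoderm. Hoxa11 had 26 reads in mesoderm and Hoxa9 had 8, and neither had a read elsewhere. Hoxa7 (6, 10 and 8 reads) and Hoxa13 (4, 5 and 2 reads) were low everywhere.

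The Hoxb cluster held the highest Hox level and the longest run of genes that were on. Hoxb1, the rhombomere gene that is among the first Hox genes of the streak, had 231, 5811 and 3424 reads in endoderm, mesoderm and epiblast (2.67, 68.5 and 38.6 RPKM). Hoxb2 had 30, 1930 and 683 reads (0.442, 29.0 and 9.81 RPKM). Hoxb3 had 12, 939 and 269 reads (0.0850, 6.78 and 1.86 RPKM). These 3 genes of the 3′ end shared an order, with mesoderm above epiblast above endoderm. Hoxb4, expressed up to the posterior hindbrain, differed less, with 45, 170 and 148 reads (0.421, 1.62 and 1.35 RPKM). Its mesoderm to epiblast ratio of 1.20 had an interval that held 1 (0.958 to 1.51).

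The next Hoxb genes set mesoderm apart from epiblast. Hoxb5 had 6, 140 and 19 reads in endoderm, mesoderm and epiblast (0.0753, 1.79 and 0.233 RPKM), and Hoxb6 had 18, 360 and 16 (0.322, 6.56 and 0.279 RPKM). Hoxb6, a gene of trunk and lateral plate mesoderm, was thus on in mesoderm alone, as high as Hoxb3 there, and its epiblast level was not above that of endoderm (ratio 0.867, interval 0.414 to 1.80). Reads covered 94.0% of the Hoxb6 transcript in mesoderm, 36.8% in epiblast and 55.6% in endoderm. Hoxb8 had 6, 111 and 74 reads, Hoxb7 had 3, 26 and 23, and Hoxb9 had 4, 60 and 60. The last 3 genes were detected in mesoderm and epiblast, between 0.424 and 1.03 RPKM, and stayed at or below 6 reads in endoderm. Hoxb13 was listed in no layer.

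Hoxc genes were barely transcribed. The highest Hoxc level in any layer was that of Hoxc4 in mesoderm at 0.321 RPKM, with 26 reads there, 21 in epiblast and 3 in endoderm. Hoxc8 had 21 reads and Hoxc5 had 12 in mesoderm, while in epiblast they had 0 and 2. Hoxc6, Hoxc9 and Hoxc10 had 5 or 6 reads in mesoderm and at most 2 in epiblast, and Hoxc11 had 2 reads in epiblast alone. Endoderm had no read of Hoxc5 to Hoxc12. Hoxc13, later a gene of hair and nail, was the exception and the only member with its highest level in endoderm, with 19 reads there and 1 in each other layer. At 0.187 RPKM its level was low, its ratio to mesoderm was 18.6 (2.96 to 774) and to epiblast 19.5 (3.10 to 809), and reads covered 37.2% of the transcript.

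Hoxd genes were on only in mesoderm, and only at 2 places in the cluster. Hoxd1 had 12, 472 and 70 reads in endoderm, mesoderm and epiblast (0.153, 6.15 and 0.873 RPKM). Hoxd9, which later acts in the limb and the lumbar region, had 0, 224 and 42 reads (0, 2.55 and 0.457 RPKM). The genes between them were low, since Hoxd3 (0, 30 and 10 reads), Hoxd4 (4, 17 and 8) and Hoxd8 (2, 21 and 14) stayed under 0.4 RPKM. Beyond Hoxd9, Hoxd10 had 26 reads in mesoderm and 3 in epiblast, and Hoxd11 had 4 and 1. Hoxd13, the gene at the 5′ end that patterns digits and genitalia, again stood higher than its neighbours, with 12, 93 and 92 reads (0.116, 0.917 and 0.867 RPKM). Hoxd12 was listed in no layer.

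By gene number the genes that were on lay towards the 3′ ends. Of the 7 genes described with numbers 1 to 3, 5 were on in mesoderm, 5 in epiblast and 1 in endoderm. Of the 15 genes of numbers 4 to 8, no gene was on in endoderm, 4 were on in mesoderm and 1 in epiblast, and their RPKM summed to 1.17, 13.2 and 4.31. Of the 16 genes of numbers 9 to 13, Hoxd9 in mesoderm was the only gene on, although 11 were detected in mesoderm and 4 in each of the other layers. The RPKM of these 16 genes summed to 0.430, 5.77 and 2.17 in endoderm, mesoderm and epiblast. The epiblast library therefore held fewer genes over 1 RPKM beyond number 3 than the mesoderm library, with Hoxb4 as the only one.

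Within a cluster the level mostly fell with gene number, most evenly in Hoxb. Spearman's rho between number and RPKM over the 10 Hoxb genes was -0.94, -0.92 and -0.77 in endoderm, mesoderm and epiblast. Over the 9 Hoxd genes it was -0.27, -0.33 and -0.38. Over the 9 Hoxc genes, all under 1 RPKM, it was 0.09, -0.90 and -0.27. These values describe genes of 1 library each, which share its depth, and genes are not independent replicates. In mesoderm the genes that stood above the neighbour on their 3′ side were Hoxb6, Hoxa10, Hoxd9 and Hoxd13 among others, all named above with their reads.

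Endoderm and mesoderm were compared first. By the criteria used in the study (RPKM>5 in at least 1 library, Fold Change>2 and FDR<0.001), 7 of the 36 members with a read in either library were called and all 7 were higher in mesoderm, namely Cdx1, Cdx4, Hoxb1, Hoxb2, Hoxb3, Hoxb6 and Hoxd1. Over all 17194 genes with a read 11.9% were called, 4.41% higher in mesoderm and 7.44% higher in endoderm. The FDR came from an exact test of the 2 read counts, which compares the libraries and not the layers. Hoxb3 was 79.8-fold (45.5 to 155) higher in mesoderm, Hoxb2 65.6-fold (45.8 to 97.5) and Hoxd1 40.1-fold (22.7 to 78.2). Hoxb1 was 25.7-fold (22.5 to 29.4) and Hoxb6 20.4-fold (12.7 to 34.8) higher. Cdx4, with no read in endoderm, was at least 139-fold higher, and Cdx1 was 5.19-fold (4.49 to 6.02) higher. Cdx2 was the member over 5 RPKM that was not called, at 1.14-fold (1.06 to 1.22). In edgeR's exact test at an assumed variation of 0.4 the call of Cdx1 was lost.

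With the minimum lowered to RPKM>1, 12 members were called and again all were higher in mesoderm, where 19.6% of all genes were called, 8.24% in that direction and 11.4% in the other. The genes added were Hoxa2 at 16.9-fold (9.87 to 31.4), Hoxb4 at 3.85-fold (2.76 to 5.48), Hoxb5 at 23.8-fold (10.7 to 65.9), Hoxb8 at 18.9-fold (8.40 to 52.5) and Hoxd9. Hoxd9 was 76.1-fold higher with a floor of 3 reads in endoderm and 38.1-fold with a floor of 3 pairs of reads. The lower limit of its interval was 61.4-fold. Hoxb4 differed least among the genes added. Over the 36 members with more than 3 reads in either library the median log2 ratio of mesoderm to endoderm was 2.91, with a floor of 3 reads at which 18 of them stood in endoderm. Over all 16150 such genes it was 0.11.

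Endoderm and epiblast shared the endoderm library with the comparison above, so the pair gives no separate check of its level. Here 4 of 32 members with a read were called, all higher in epiblast (Cdx1, Cdx2, Hoxb1 and Hoxb2), where 12.6% of all 17267 genes were called, 4.58% higher in epiblast and 8.02% higher in endoderm. Hoxb2 was 22.2-fold (15.4 to 33.2), Cdx1 15.9-fold (13.9 to 18.3) and Hoxb1 14.5-fold (12.7 to 16.6) higher. Cdx2 was 2.02-fold (1.90 to 2.14) higher, next to the threshold. Its call was lost when libraries were scaled to the same RPKM total or by the median of ratios. In edgeR's exact test the call of Cdx2 was lost at either assumed variation and that of Hoxb1 at 0.4. With RPKM>1 the call took in Cdx4, Hoxa2 (9.75-fold, 5.62 to 18.3), Hoxa3 (12.8-fold, 8.05 to 21.7), Hoxb3 (21.9-fold, 12.3 to 42.8) and Hoxb4 (3.21-fold, 2.28 to 4.58). That gave 9 members in all, where 20.6% of all genes were called, 8.91% in that direction and 11.7% in the other. Cdx4 was 38.4-fold higher with a floor of 3 reads in endoderm and 19.2-fold with a floor of 3 pairs of reads. The lower limit of its interval was 30.7-fold. The median log2 ratio over the 27 members with more than 3 reads was 2.77, against 0.11 over all 16219 genes.

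Between mesoderm and epiblast members were called in both directions by the criteria of the study. Of 37 members 6 were called, where 5.04% of all 17100 genes were called, 2.58% higher in mesoderm and 2.45% higher in epiblast. Higher in mesoderm were Hoxb6 at 23.5-fold (14.3 to 41.6), Hoxd1 at 7.05-fold (5.47 to 9.20), Hoxb3 at 3.65-fold (3.18 to 4.19), Cdx4 at 3.61-fold (2.94 to 4.48) and Hoxb2 at 2.95-fold (2.71 to 3.23). Cdx1 alone was called higher in epiblast, at 3.07-fold (2.87 to 3.28). In edgeR's exact test at an assumed variation of 0.2 the calls of Cdx1 and Hoxb2 were lost, so that the 4 left (Cdx4, Hoxb3, Hoxb6 and Hoxd1) were all higher in mesoderm, and at 0.4 no member was called. Cdx2 was 1.77-fold (1.67 to 1.88) higher in epiblast and Hoxb1 1.77-fold (1.70 to 1.85) higher in mesoderm, both under the fold threshold. With RPKM>1 the call took in Hoxb5 (7.70-fold, 4.75 to 13.2) and Hoxd9 (5.58-fold, 3.996 to 7.95) in mesoderm and Hoxa3 (2.52-fold, 1.98 to 3.22) in epiblast. That gave 7 members in mesoderm and 2 in epiblast, where 10.8% of all genes were called, 4.88% and 5.88% in these directions. The median log2 ratio was 0.83 over the 35 members with more than 3 reads, 30 of them higher in mesoderm, against -0.00 over all 15958 genes.

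Among the Hox genes, only Hoxa genes had a mesoderm to epiblast interval below 1 (higher in epiblast). A difference between clusters was not tested, and the share of all genes with an interval that leaves out 1 was not computed. Of the 9 detected Hoxb genes, 6 had an interval above 1 (higher in mesoderm), 3 held 1 and none lay below. Of the 8 detected Hoxd genes 4 lay above 1 and 4 held 1. Of the 9 Hoxa genes described and detected, 4 lay above 1 (Hoxa2, Hoxa9, Hoxa10 and Hoxa11) and 3 below (Hoxa3, Hoxa4 and Hoxa5). The Hoxa genes below 1 lay side by side, among them Hoxa5, higher in epiblast by 2.27-fold (1.24 to 4.36). Those above 1 lay on either side of them, such as Hoxa2 by 1.73-fold (1.40 to 2.15) and Hoxa10 by 4.77-fold (2.75 to 8.78). Hoxb7 (1.18, 0.648 to 2.17), Hoxb9 (1.05, 0.719 to 1.52, of which the sign turned under upper quartile scaling) and Hoxd13 (1.06, 0.784 to 1.43) could not be told from equal at this depth. Low counts in the tables were mostly even, and when 2 reads were counted as 1 pair the intervals of Hoxa4, Hoxa5, Hoxa9, Hoxc5 and Hoxc6 held 1 as well. Hoxa3 was then the only Hox gene with an interval below 1.

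**Figure D3:**
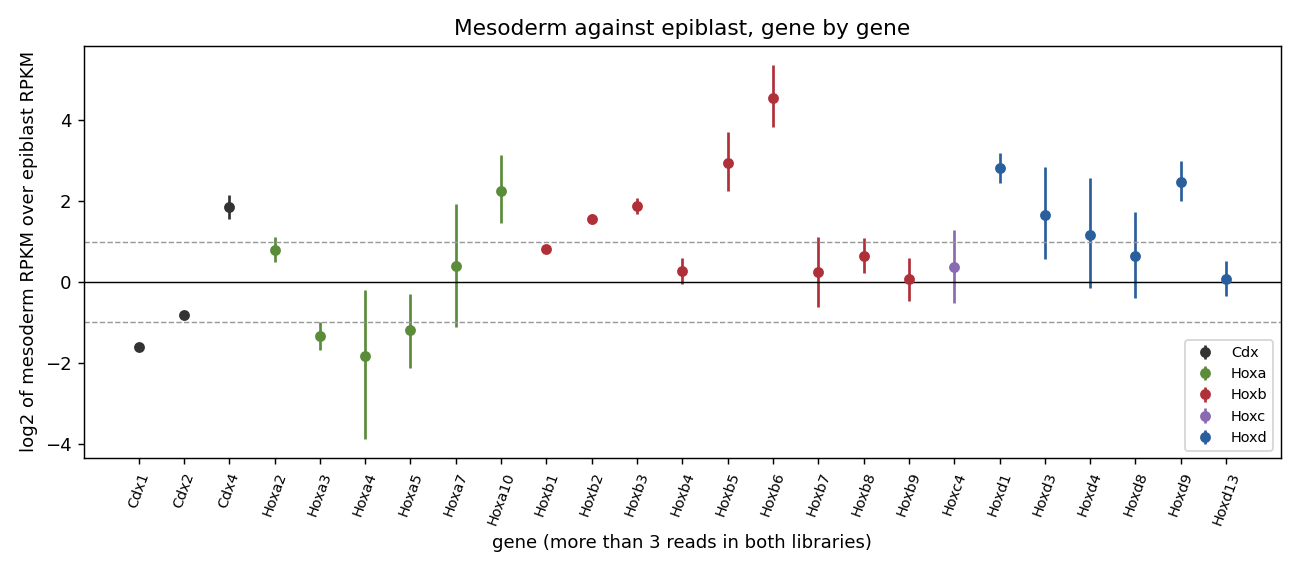
Log2 of the mesoderm to epiblast RPKM ratio for each member with more than 3 reads in both libraries, with 95% intervals for counting error, coloured by cluster. The solid line is no difference and the dashed lines are 2-fold. Hoxb and Hoxd genes lie above 0 (Hoxb9 falls just below it under upper quartile scaling), with Hoxb6 highest (23.5-fold), while Cdx1, Cdx2, Hoxa3, Hoxa4 and Hoxa5 lie below.

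The allantois and extra-embryonic mesoderm also express Hox genes, and 6 of their markers were read beside this comparison. Their reads summed to 1660, 28001 and 3853 in endoderm, mesoderm and epiblast, and 3 of 6 were called higher in mesoderm than in epiblast (2.58% of all genes). Hand1, a factor of extra-embryonic and lateral mesoderm, was at 0.999, 222 and 33.2 RPKM, and Bmp4 at 1.11, 33.6 and 2.69 RPKM. Tbx4, an allantois factor, had 1, 127 and 13 reads. The part of such cells in the levels of Hoxb6, Hoxa10 or Hoxd9 in mesoderm was not tested.

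The level left in endoderm was low for most members but not at zero. For the 11 Hox genes described that were on in any layer, the endoderm level was 0 to 26.0% of that in the higher of the other layers, with a median of 4.20%. Hoxb1 stood at 3.90% (3.40 to 4.45%) and Hoxb2 at 1.52% (1.03 to 2.18%). Hoxb4 was the highest at 26.0% (18.3 to 36.2%), and Hoxd9, with no read, would stand at 1.31% with the floor of 3 reads. The mesoderm markers Kdr and Foxf1 stood at 0.668% and 1.09% in the endoderm library and the epiblast markers Sox2 and Pax6 at 1.44% and 2.18%, the last from 2 reads. On the allantois list Hand1 stood at 0.451%, Tbx4, from 1 read, at 0.772%, Bmp4 at 3.30% and Ahnak at 18.2%. Col3a1 had no read in endoderm, and Postn stood at 153%, from 28 reads in endoderm and 18 in mesoderm. Hoxb2 and Hoxb3 (1.25%) lay among Kdr, Foxf1, Sox2 and Pax6. Hoxb4 lay above all these markers except Postn, which was not higher in mesoderm than in endoderm. The other Hox genes on in any layer lay below Ahnak. The part of other layers' cells in the endoderm reads was not tested.

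**Figure D4:**
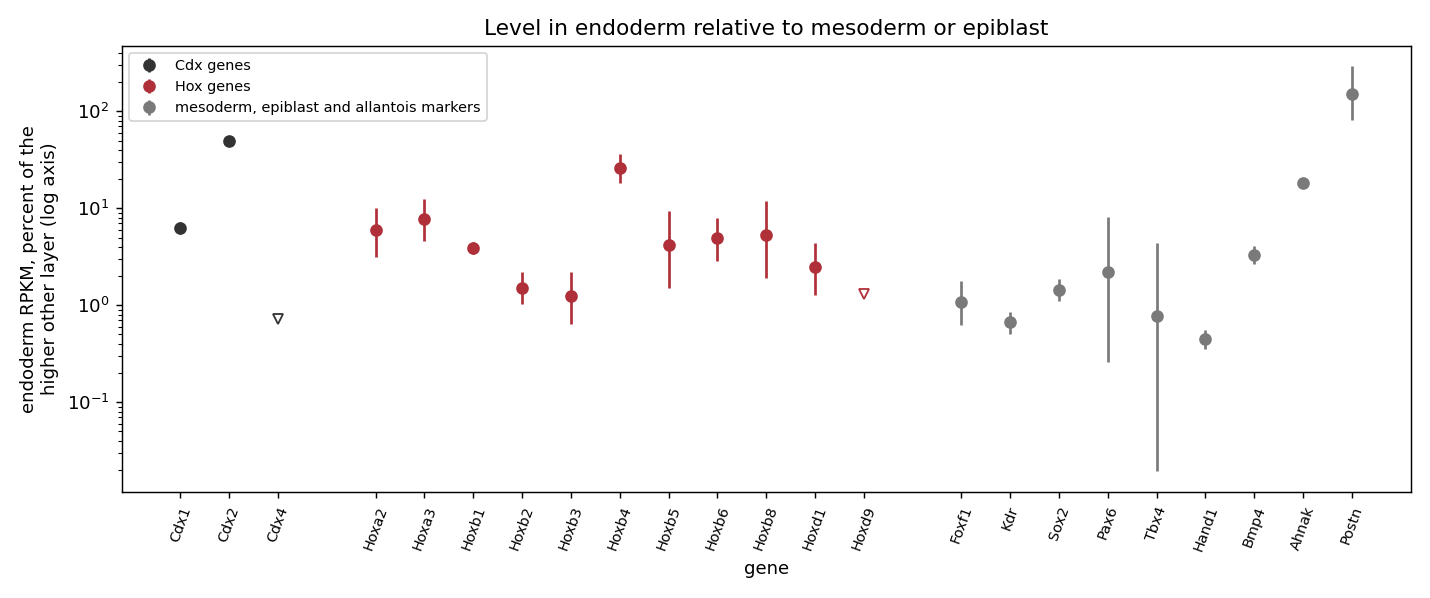
Endoderm RPKM as a percent of the higher of mesoderm and epiblast, on a log axis, for the members on in any layer and for markers of mesoderm, epiblast and allantois. Bars are 95% intervals for counting error and open triangles are upper limits for genes with 0 reads. Cdx2 (49.6%) and Hoxb4 (26.0%) lie highest among the members, while Kdr and Sox2 lie at 0.668% and 1.44%.

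Signals that act on Cdx and Hox genes were read over 17 genes. Of these, 6 were called higher in mesoderm than in endoderm, 9 were called higher in epiblast than in endoderm and 1, Cyp26a1, higher in endoderm than in epiblast, where 4.41%, 4.58% and 8.02% of all genes were called in these directions. Between mesoderm and epiblast 3 were called higher in mesoderm (Wnt5a, Aldh1a2 and Cyp26a1) and 5 in epiblast (T, Wnt3a, Wnt5b, Wnt8a and Nkx1-2), where 2.58% and 2.45% of all genes were called. The median log2 ratio of mesoderm to epiblast over the list was -0.58.

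Wnt genes of the streak were most abundant in the epiblast library. Wnt3a was at 0.774, 1.38 and 13.9 RPKM in endoderm, mesoderm and epiblast, and Wnt8a at 0.364, 2.47 and 25.0 RPKM, each 10.1-fold higher in epiblast than in mesoderm. T, the Brachyury factor of streak and notochord, was at 93.7, 74.8 and 229 RPKM, and Fgf8 at 1.77, 10.3 and 13.5 RPKM. Cdx1 and Cdx2 had their highest level in the same library as these genes. A link between the signal levels and the Cdx levels was not tested. Of the retinoic acid genes named here, Aldh1a2 and Cyp26a1 were highest outside epiblast, while Rarg was highest in epiblast. Aldh1a2, the enzyme that makes retinoic acid, was at 5.20, 93.7 and 27.3 RPKM, so that its mesoderm level was 18.0 times that of endoderm and 3.43 times that of epiblast. Cyp26a1, which breaks retinoic acid down, was highest in endoderm, at 45.1, 25.9 and 11.3 RPKM. Rarg, the retinoic acid receptor gamma, was at 8.67, 29.2 and 43.8 RPKM.

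Several TALE partners of Hox proteins were higher in mesoderm and epiblast than in endoderm. Of 8 genes, 4 were called higher in mesoderm than in endoderm (Pbx3, Meis1, Meis2 and Pknox2), and these without Meis1, 3 genes, were called higher in epiblast than in endoderm (4.41% and 4.58% of all genes). Meis2 was at 2.30, 25.8 and 22.4 RPKM, Pknox2 at 1.74, 23.2 and 17.7 RPKM and Pbx3 at 7.32, 34.1 and 32.0 RPKM. Meis1 was the only partner called between mesoderm and epiblast, at 2.24, 20.2 and 1.54 RPKM, 13.1-fold higher in mesoderm. Pbx2 was abundant in all layers (60.04, 76.6 and 49.0 RPKM) and was called in no pair.

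**Figure D5:**
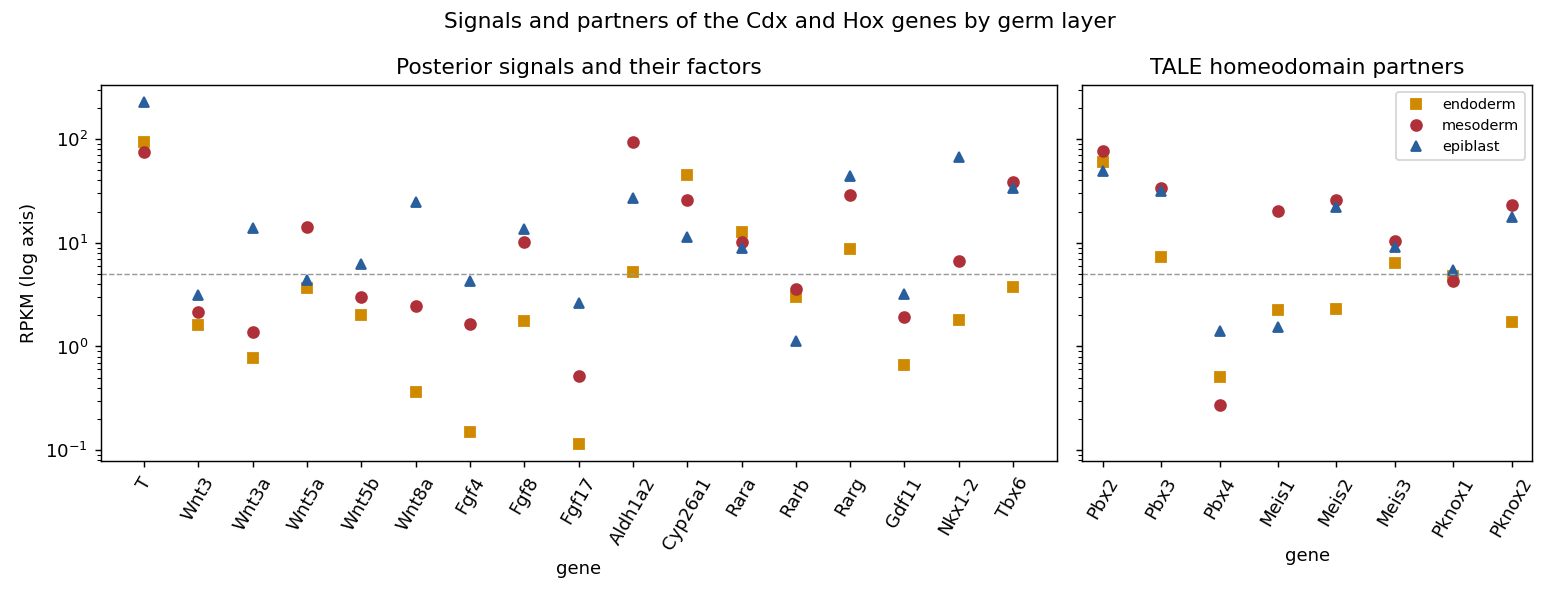
RPKM on a log axis of 17 posterior signals and factors (left) and 8 TALE homeodomain partners (right) in endoderm (squares), mesoderm (circles) and epiblast (triangles). The dashed line is 5 RPKM. Wnt3a, Wnt8a and Nkx1-2 stand apart in epiblast, Aldh1a2 and Meis1 in mesoderm and Cyp26a1 in endoderm.

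Of 6 hindbrain regulators of Hox genes, 2 were called higher in mesoderm and the same 2 in epiblast than in endoderm (4.41% and 4.58% of all genes). Gbx2, a gene of the anterior hindbrain, was at 2.43, 11.01 and 37.0 RPKM in endoderm, mesoderm and epiblast, and Irx3 at 8.96, 25.9 and 51.1 RPKM, and these were the 2 genes called. Egr2 (Krox20), which drives Hoxa2 and Hoxb2 in the hindbrain, had 7, 8 and 10 reads. Hoxb2 was at 29.0 RPKM in the mesoderm library, where Egr2 had 8 reads, and a link between the 2 genes was not tested.

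Of 20 chromatin regulators of the Hox clusters, genes of the Polycomb and Trithorax groups and their partners, 1 was called in the pair of endoderm and mesoderm (11.9% of all genes), 3 in that of endoderm with epiblast (12.6%) and 2 in the remaining pair (5.04%). Cbx2 was the 1 of them called between endoderm and mesoderm (16.98 and 46.1 RPKM). Between endoderm and epiblast Cbx2 and Phc1 were called higher in epiblast and Bmi1 higher in endoderm. Between mesoderm and epiblast Phc1 was higher in epiblast (34.0 and 93.9 RPKM) and Bmi1 in mesoderm (16.1 and 7.90 RPKM). Ezh2, the enzyme that writes the repressive H3K27 mark, was at 58.9, 85.1 and 90.5 RPKM, and Kmt2a, which writes the active H3K4 mark, at 5.28, 6.31 and 6.43 RPKM.

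Exons of several members overlap other genes of the annotation, and whether the counts used strand is not given in the sources used here. Exons of Hoxb3 overlap Hoxb3os on the opposite strand over 52.9% of their length and those of Hoxb2 over 27.3%. Exons of Hoxa3 overlap other genes, among them the antisense Hoxaas2 and Hoxaas3, over 27.1% and those of Hoxa7 overlap Hoxaas3 over 20.4%. Hoxaas3, listed under its former symbol 2700086A05Rik, had 2, 0 and 22 reads in endoderm, mesoderm and epiblast, against 19, 95 and 250 of Hoxa3, and its part in the Hoxa3 reads was not tested. Hoxd3 and Hoxd4 share exons with each other and with antisense genes (62.8% and 52.3%), and 35.0% of Hoxa11 lies against Hoxa11os. Reads of such a gene and of its partner cannot be told apart. Hoxb1, Hoxb4, Hoxb6, Hoxd1, Hoxd9, Hoxd13 and the Cdx genes have no such overlap.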

How the data were processed

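Total RNA of each germ layer (RNeasy Micro kit, DNase I) was sequenced as paired ends in 1 library per layer. TopHat and the builds mm10 and mm9 are named in the submitters' processing notes. The counting program, the annotation and the use of strand are not given in the sources used here. The deposited tables give, per gene, the read count, the transcript length, the covered percent of the transcript and RPKM, all as the authors computed them. RPKM equalled reads scaled to transcript length and to the table total, which was 41654074, 40849823 and 42705496 reads for endoderm, mesoderm and epiblast. Each of the 37 listed members had the same length in every table.

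A gene missing from a table was taken as 0 reads, which allows up to 3, and 3 reads were used as the floor in folds for calls. Calls followed the study's criteria (RPKM over 5 in at least 1 library, a fold over 2 and an FDR under 0.001), with Audic and Claverie's exact test of the reads and Benjamini-Hochberg adjustment over all genes with a read in either library. No dispersion can be estimated from 1 library per layer, so no p-value is printed, and edgeR 4.0.16 (R 4.3.3) was run only with an assumed variation. Intervals of 95% are exact Poisson intervals for levels and come from the exact binomial interval of both counts for ratios (SciPy 1.17.1). Scripts were tested on simulated data. Among genes with 1 to 20 reads, 66.4 to 68.9% had an even count, and 2 reads were more frequent (649 to 683 genes) than 1 read (208 to 231) or 3 (148 to 151). Intervals with 2 reads taken as 1 pair were therefore added after seeing the data. The members were described, those over 1 RPKM in each library. From the other lists, called genes of largest fold and T, Wnt3a, Fgf8, Aldh1a2, Cyp26a1, Hand1 and Elf5 were named, and further genes were named after their values were seen. A few genes of the rule and the lists are not reported here and enter no count, sum or figure of members or lists. Members and lists were chosen with earlier results of these data known. Gene positions are from GENCODE M21 (GRCm38) and sequences from RefSeq. The alternatives were other minimums, folds and scalings, no FDR criterion, edgeR and a pseudocount of 0.1 RPKM.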

Additional observations from a re-analysis of the deposited data

Results flagged for a closer look

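Of 15 noncoding genes inside the Hox clusters, which lay outside the comparisons, 3 were listed, with reads above the limit of 3 that a count of 0 allows, and the others, among them Hotairm1, Hottip, Hotair and Haglr, were listed in no layer. Mira, a noncoding gene of the Hoxa cluster, had 15, 4 and 19 reads in endoderm, mesoderm and epiblast. Hoxa11as, antisense to Hoxa11, had 4 reads in mesoderm, 4 in epiblast and 0 in endoderm. 2700086A05Rik, a former symbol of Hoxaas3, had 22 reads in epiblast, 2 in endoderm and 0 in mesoderm.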

How the results depend on the processing

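No paired analysis was possible because each layer has 1 library, and for the same reason no library could be left out. With a level of RPKM over 5 the members on were 1, 8 and 4 in endoderm, mesoderm and epiblast, and with more than 3 reads they were 18, 35 and 25. Members called between endoderm and mesoderm numbered 12 with RPKM over 1, 3 with RPKM over 10 and 26 with no RPKM minimum. Between endoderm and epiblast they numbered 9 with RPKM over 1, 18 with no minimum and 2 in edgeR's exact test at a biological coefficient of variation of 0.4. Between mesoderm and epiblast they numbered 2 with RPKM over 10, 13 with no minimum, 2 with a fold over 4, and 0 in edgeR at 0.4, which called 60 of all genes, against 4 members, all higher in mesoderm, at 0.2. All genes called between endoderm and mesoderm numbered 3375 with RPKM over 1, 4676 with no minimum, 3539 with a fold over 1.5, 936 with a fold over 4, 1199 in edgeR at 0.2 and 387 at 0.4. The same settings gave 3561, 4854, 3920, 898, 1235 and 331 genes between endoderm and epiblast. They gave 1840, 2784, 1560, 334, 443 and 60 between mesoderm and epiblast, and RPKM over 10 gave 525. Stricter settings leave fewer genes by construction.

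Scaling by the median of ratios moved all log2 ratios of mesoderm and of epiblast to endoderm by -0.11, and the upper quartile moved epiblast to endoderm by 0.12. Of 98 member ratios, 1 moved out of its counting interval with TPM scaling, 2 with the median of ratios, 2 with the upper quartile and 22 with a pseudocount of 0.1. The sign changed for 1, Hoxb9 between mesoderm and epiblast, which lay near 0, under the upper quartile. With 2 reads counted as 1 pair the member calls were the same genes (7, 4 and 6), while 4, 4 and 5 member intervals came to hold 1. A floor of 3 pairs in place of 3 reads would lower the folds over endoderm of genes with no read there. In mesoderm they would be 69.3-fold for Cdx4 and 38.1-fold for Hoxd9, and in epiblast 19.2-fold for Cdx4. Depth limited the genes under 4 reads, and variation between embryos was not measured.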

Other observations

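Relatives of the Hox and Cdx genes outside the clusters were measured too. Of 5 genes of the ParaHox and Evx families, only Evx1 was called, higher in epiblast than in endoderm (4.58% of all genes). Evx1, a streak gene next to the Hoxa cluster, was at 5.91, 9.17 and 14.1 RPKM in endoderm, mesoderm and epiblast. Gsx1, a gene of the developing brain, had 58 reads in epiblast and none in the other layers. Pdx1, a factor of the pancreas and duodenum, had 108, 8 and 17 reads in these layers, highest in endoderm, where Cdx1 was lowest. Evx2, next to Hoxd13, was listed in no layer.

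Of 10 genes that border the clusters, 9 were listed and 0 passed the study's criteria in any of the 3 pairs, where 11.9%, 12.6% and 5.04% of all genes did, so that a count of 0 among 9 genes lies near the background. Skap2, beside the Hoxa cluster, was at 8.10, 7.47 and 7.96 RPKM in endoderm, mesoderm and epiblast, and Mtx2, near Hoxd1, at 21.7, 38.5 and 35.7 RPKM. Over the 9 genes the median log2 ratio was 0.28 for mesoderm to endoderm and 0.01 for mesoderm to epiblast.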
